A study of Mus musculus with 36 samples.

Results

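The regions described here are the promoter-proximal stretches of chromatin that were open in every skeletal element sampled from the developing mouse hand and foot. The peaks of 12 lists were merged wherever they shared at least 1 bp, which gave 65543 regions. A region was kept when all 12 lists had a peak in it and its centre lay no more than 1000 bp from a protein-coding gene's start or end. This left 9119 members, 13.9% of the merged regions and 39.0% of the 23353 regions called in all 12 lists. The members were thus chosen by the peak calls of all 12 lists and by distance, and neither is given below as a finding.

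The lists come from ATAC-seq, in which a transposase cuts DNA that is free of nucleosomes, so that a peak marks accessible chromatin. The tissue was cartilage dissected from the hands and feet (autopods) of mouse embryos of the FVB/NJ strain at E15.5 (the age in embryonic days), labelled as chondrocytes, with no other genotype or treatment. The 36 libraries form 12 groups of 3, which cross limb (forelimb or hindlimb) with element (the phalanges, or the metapodial, which is the metacarpal in the hand and the metatarsal in the foot) and digit (I, III or V). Each library held the elements of 3 to 5 embryos of 1 litter, right and left sides together, so that 6 to 10 limbs were pooled. The phalanges of a digit were pooled, with their joints not separated by the labels. The authors deposited 1 peak list per group, in which the 3 libraries are already combined, so the list is the unit of every comparison below and each combination of limb, element and digit has 1 list.

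A promoter is the DNA around the start of a gene where RNA polymerase II is loaded. Many mammalian promoters, above all those of genes that nearly every cell uses, lie in CpG islands, stretches rich in unmethylated CpG pairs that stay free of nucleosomes in most tissues. Promoters of genes used by 1 tissue alone more often lack an island and open with the enhancers that drive them. In cartilage the transcription factors SOX9, SOX5 and SOX6 act mainly through such distal enhancers to drive the collagens and proteoglycans of the matrix.

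Promoter sequence was available from RefSeq (GRCm38.p6, the assembly of mm10) for 17492 of 21887 protein-coding genes, as windows from 250 bases before to 50 after the start. The following 6 stretches, each the 200 bases before a start that lies in a member, are picked examples and not typical members. Sp4 and Desi2 were picked for their high rank. Tfg and Atp5j were picked for a high rank among members with an NRF1 or a YY1 motif. Mrps12 and Hoxd13 were picked by name. Capitals mark matches, on either strand, to the motifs whose counts follow.
Sp4, chr12:118301441-118301640, - strand: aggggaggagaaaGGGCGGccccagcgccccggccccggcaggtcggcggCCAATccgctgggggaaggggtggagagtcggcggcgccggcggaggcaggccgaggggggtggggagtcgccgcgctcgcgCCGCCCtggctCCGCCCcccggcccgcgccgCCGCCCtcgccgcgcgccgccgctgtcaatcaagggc
Desi2, chr1:178187217-178187416, + strand: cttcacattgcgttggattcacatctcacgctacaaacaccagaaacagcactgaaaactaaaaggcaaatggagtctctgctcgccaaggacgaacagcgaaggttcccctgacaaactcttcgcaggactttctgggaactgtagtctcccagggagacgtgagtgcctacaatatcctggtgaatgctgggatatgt
Tfg, chr16:56717451-56717650, - strand: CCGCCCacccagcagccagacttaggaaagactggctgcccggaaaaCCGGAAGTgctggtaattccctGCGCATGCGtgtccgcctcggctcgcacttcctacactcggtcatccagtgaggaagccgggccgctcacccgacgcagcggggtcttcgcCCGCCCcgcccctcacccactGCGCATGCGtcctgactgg
Mrps12, chr7:28741822-28742021, - strand: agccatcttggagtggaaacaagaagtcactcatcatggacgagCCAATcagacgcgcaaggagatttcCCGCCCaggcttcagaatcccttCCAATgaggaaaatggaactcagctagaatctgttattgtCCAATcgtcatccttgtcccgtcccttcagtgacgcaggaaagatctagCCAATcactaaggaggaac
Atp5j, chr16:84834977-84835176, - strand: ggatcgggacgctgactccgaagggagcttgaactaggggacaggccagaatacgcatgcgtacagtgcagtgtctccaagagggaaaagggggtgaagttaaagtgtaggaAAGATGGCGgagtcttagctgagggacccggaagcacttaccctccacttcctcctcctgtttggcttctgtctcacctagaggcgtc
Hoxd13, chr2:74668025-74668224, + strand: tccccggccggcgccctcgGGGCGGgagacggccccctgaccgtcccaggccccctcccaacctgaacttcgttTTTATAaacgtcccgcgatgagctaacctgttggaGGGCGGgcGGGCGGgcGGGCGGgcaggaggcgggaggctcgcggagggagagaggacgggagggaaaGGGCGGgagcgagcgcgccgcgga
Sp4 encodes a factor that itself binds GC boxes, and its stretch is 82% G and C with 31 CpG pairs and 4 GC boxes. Desi2, whose peak ranked among the 10 highest members, has only 7 CpG pairs and none of the motifs searched in its stretch. Over the whole window its ratio of observed to expected CpG was 0.614, against 0.911 for Sp4. Tfg, a gene of vesicle transport from the endoplasmic reticulum, carries 2 NRF1 motifs and 1 ETS motif. Mrps12, a gene of the mitochondrial ribosome, carries 4 CCAAT boxes. Atp5j, a subunit of the mitochondrial ATP synthase, carries the YY1 motif. Hoxd13, the posterior Hox gene that patterns digits, carries 5 GC boxes and, reversed, a TATA box, in the wide domain described further on.

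The starts that lay inside members were rich in CpG. Over 9224 such starts, belonging to 8089 genes, the median GC content of the window was 62% and the median ratio of observed to expected CpG was 0.786. That ratio was above 0.6, a common mark of a CpG island, at 76.9% of them. Over the 6847 starts that no peak of any list covered, the median GC content was 46%, the median ratio 0.169 and the share above 0.6 only 2.38%. All 21263 protein-coding starts of the table had a share of 47.6%. The 4033 starts covered by a constitutive region whose centre lay further away resembled the members, with a median GC content of 62% and 66.8% above 0.6.

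Motifs were counted in the windows of 300 bases as exact matches on either strand, and where motifs share letters a stretch can count for both. Shares are given in the order of starts at members, starts in constitutive regions whose centre lay further away, starts in no region and all starts. The GC box bound by SP and KLF factors, GGGCGG, was in 68.1%, 65.0%, 8.27% and 46.2% of windows, so that members and the other constitutive starts were close. The ETS motif CCGGAAGT was in 9.09%, 4.79%, 0.759% and 5.15%. NRF1, searched as GCGCATGCG, stood at 4.13%, 2.23%, 0.394% and 2.35%. YY1, searched as AAGATGGCG, stood at 3.42%, 1.46%, 0.204% and 1.83%, and the CRE of CREB and ATF factors, TGACGTCA, at 3.50%, 2.50%, 0.540% and 2.23%. The share at members was the highest of the 4 for each of these 5 motifs. All of them contain CpG, whose density at the same starts is given above. The E-box CACGTG, of USF and MYC, also contains CpG and stood at 10.6%, 9.05%, 3.72% and 7.84%. ZNF143, searched as ACTACAATT, has no CpG. Its shares were 0.846%, 0.397%, 0.175% and 0.508%, again highest at members. The CTCF motif AGGGGGCGC contains CpG but was more frequent at the other constitutive starts than at members. The part of CpG density in these shares was not tested.

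Other motifs were rarer at members than at starts in no region, as they were at the other constitutive starts. In the same order, the TATA box, TATAAA, was in 6.10%, 6.45%, 24.97% and 12.6% of windows. The AP-1 motif TGANTCA, of FOS and JUN factors, was in 4.01%, 4.98%, 11.3% and 6.99%. The RUNX motif TGTGGTT was in 3.20%, 2.88%, 7.68% and 4.71%, and the SOX motif AACAATGG in 0.390%, 0.669%, 1.61% and 0.837%. The CCAAT box, bound by NF-Y, stood at 38.8%, 34.8%, 40.3% and 38.2%. The counts describe letters in the windows and not binding, and no difference between these sets was tested.

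Members sat at starts and far less at ends. Among the genes whose strand was known, 7806 (44.6%) had a member at the start and 708 (4.05%) at the end. Over the genes longer than 5 kb the shares were 52.1% and 3.16%. In naming a member, a start or an end of unknown strand within 1 kb was taken before a known end, even a nearer one. By this rule 6971 members (76.4%) were named by a known start and 350 (3.84%) had only known ends nearby. The strand was not in the table for the remaining 1798. In all, 10146 of the 21887 protein-coding genes (46.4%) had a member at an end. The members covered 20 chromosomes, with 339 on X and none on Y.

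Within the members the summit, the highest point of a peak, was close to the start. For 5105 members with 1 peak in every list and 1 gene with 1 known start inside, the median summit over the 12 lists lay 22 bp inside the gene, and 86.5% were within 250 bp of the start. The median in single lists ran from 11 bp in metacarpal digit V to 30 bp in the hand phalanges of digit I. The same summit moved by a median of 127 bp between its leftmost and rightmost list, and by more than 500 bp at 204 members (3.996%). The rule bounds the centre of the region but not the summit, so part of this closeness comes from the selection.

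**Figure D1:**
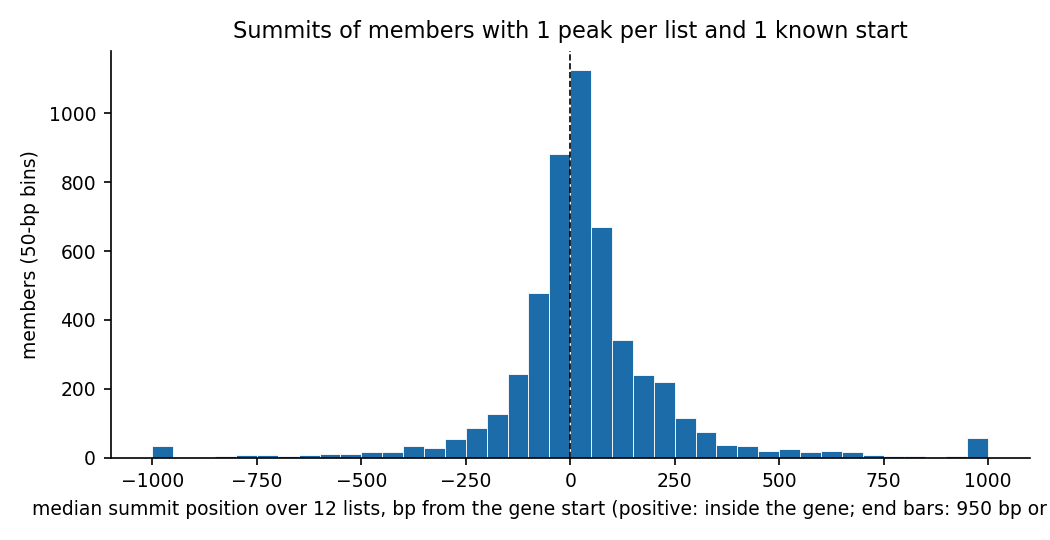
Histogram of the median summit position of 5105 members, in bp from the gene start on the x axis (positive values lie inside the gene) and members per 50-bp bin on the y axis. The distribution peaks just inside the gene, with its median at 22 bp, and the outermost bars also hold all positions beyond the axis.

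Members were the taller peaks of each list. Height is the authors' fold enrichment over background, used only to rank peaks within a list, and the rank percentile runs over the 23353 regions called in all 12 lists. The median member stood between percentile 68.7 (metacarpal digit V) and 70.8 (foot phalanges of digit I). The 14234 constitutive regions whose centres lay further from a gene end, called distal here, had medians between 33.4 and 37.0. They are not all away from promoters, since 4033 protein-coding starts lay inside them. The difference was 35.5 ± 1.66 percentile points (SD, n = 12 lists) and had the same direction in 12 of 12 lists (exact sign-flip permutation over lists, two-sided, p = 0.000488, the smallest that 12 lists allow). In the authors' fold enrichment the median member ran from 19.1 to 45.2 and the median distal region from 10.8 to 18.7, a ratio of 1.77 to 2.70 within a list. By list, 16.7% to 17.2% of the members fell above percentile 90 and 1.40% to 3.40% below percentile 10.

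Median width hardly set members apart, but the distance rule itself bears on this comparison. A wide region over a promoter can have its centre too far from the gene end and so count as distal. The 95th percentile of a region's median width was 5198 bp for members and 7356 bp for distal regions. The test below therefore does not separate width from the selection. The median covered width of a member was 2138 to 2736 bp by list, and exceeded the distal median by 44.2 ± 63.6 bp (SD, n = 12), in 10 of 12 lists (exact sign-flip permutation, two-sided, p = 0.0347). Leaving out 1 list at a time ended this call for 6 lists, namely metacarpal digits I (p = 0.0625) and V (0.0693), metatarsal digit V (0.0693), the hand phalanges of digits I (0.0625) and V (0.0527) and the foot phalanges of digit I (0.0693), by the same exact permutation.

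**Figure D2:**
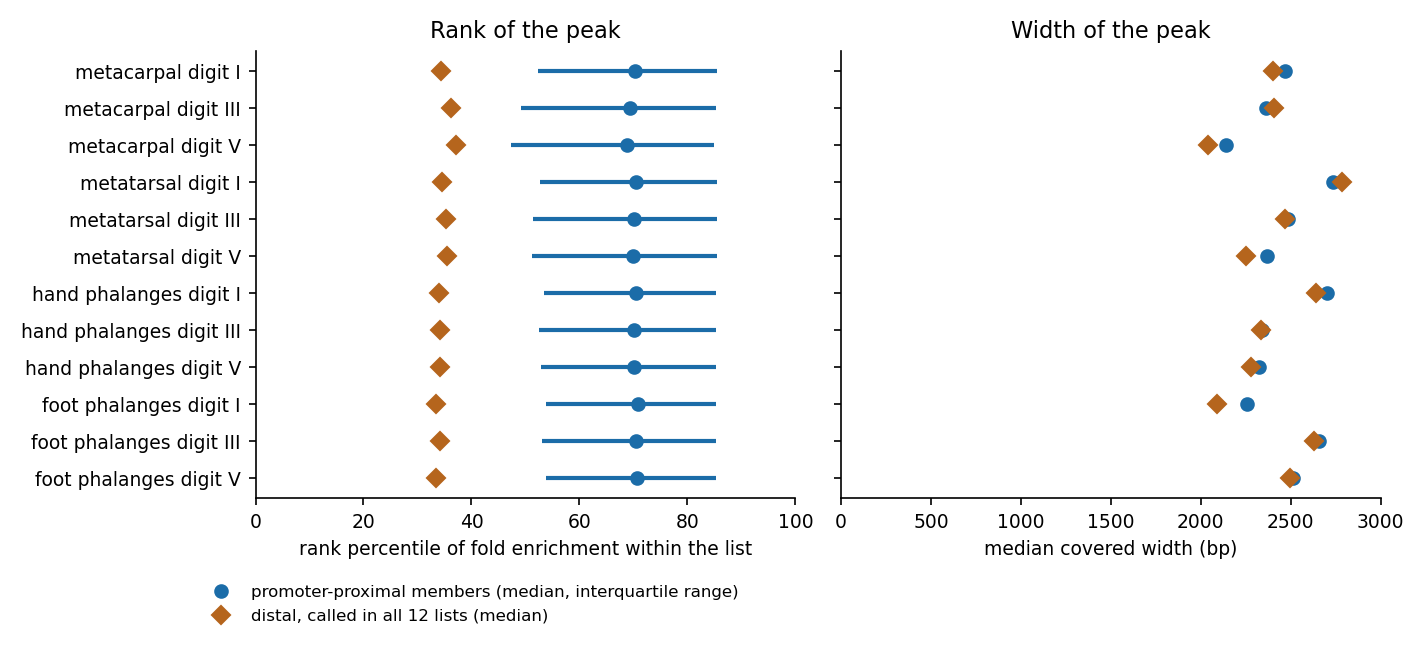
Left, rank percentile of fold enrichment in each of the 12 lists, with circles for the median member, bars for the interquartile range of members and diamonds for the median distal region called in all lists. Right, the median covered width in bp for the same sets. The member medians lie between 68.7 and 70.8 and the distal medians between 33.4 and 37.0, while the widths of both sets move together from list to list.

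Members also kept their rank better. The range of a region's percentile over the 12 lists had a median of 15.54 points for members and 22.5 for distal regions, although ranks near either extreme have less room to move. A single peak covered the region in every list for 8366 members (91.7%), against 78.4% of the distal regions, and 9112 members had a stretch that the peaks of all 12 lists shared. The 7 members without such a stretch met the rule only because peaks of different lists were chained together.

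The kinds of member differed in height. Members named by a known start had a median percentile of 71.3, and the 350 with only known ends had one of 50.3 and were wider, with a median of 3588 bp against 2370 bp. The 466 members between the starts of a divergent gene pair, in which neighbours are transcribed away from each other, had a median of 80.4 and the smallest range over lists, 11.5 points. A start of a long noncoding RNA gene lay within 1 kb of the centre for 8.54% of members and 5.30% of distal regions.

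The 10 highest members by median percentile lay at Wls, Gm40469, Desi2, B3galnt2, Sp4, Gm3636, Ptp4a1, Fh1, Aasdhppt and Opn3. The member at the start of Fh1, which encodes fumarase of the citric acid cycle (chr1:175623579-175627352), ranged only from percentile 99.6 to 99.8. Aasdhppt and Kbtbd3 share a divergent promoter (chr9:4307714-4311444), where the percentile ran from 99.5 to 99.8. The highest of all, near the end of Wls (chr3:159939007-159939680), had a median fold enrichment of 410 and was also the narrowest member, with a median width of 433 bp. Gm40469 and Gm3636 belong to families of near-identical copies, and the sources used here do not say how reads with several matches were counted.

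The 10 lowest members lay at 1700012B09Rik, Nol12, Zfp811, Tmem254c, Vps8, Tlcd2, Mettl21c, Fcho1, Prkag3 and Htr2c, with medians of 1.04 to 2.15. Among them were Prkag3, the muscle subunit of the AMP-activated kinase, and Htr2c, a serotonin receptor of neurons. The tissues that use the other genes of the 10 were not examined, so no pattern is drawn. Htr2c (chrX:146961340-146963981) moved between percentile 0.238 and 19.5, a wide span for so low a rank.

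The 5 members nearest to the limit were at Calm2, Vgll3, Fbxo9, Epha7 and Tbc1d4, with centres 999 to 1000 bp from the gene end and median percentiles of 71.1 to 98.9. The 5 regions just outside were at Pla2g2c, Dgat1, Atp2b4, Kcnd3 and Phc2, with distances of 1000.5 to 1001.5 bp and median percentiles of 6.21 to 80.05, of which 3 lay below all 5 members. The other limit, 12 lists of 12, left out 1604 promoter-proximal regions. Of these, 224 were called in 11 lists, and the missing list was metacarpal digit V for 119 of them. That list also had the lowest median fold enrichment of members.

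Genes that every cell needs mostly had a member. A member was found at 66 of 78 mitochondrial ribosomal protein genes (84.6%), 35 of 39 complex I subunits of the respiratory chain (89.7%), 31 of 39 proteasome subunits (79.5%), 24 of 26 spliceosome genes (92.3%) and 24 of 30 Mediator subunits, against 46.4% of all protein-coding genes. The 16 DNA replication genes with a member, of 21 listed, had the highest median percentile of the lists, 86.6. They included Mcm4 of the replicative helicase at 99.4, Pcna, the sliding clamp, at 95.8 and Orc3 of the origin recognition complex at 94.9. Cytosolic ribosomal protein genes looked different at first, with a member at 46 of 84 (54.8%). An end of 79 of the 84 (94.0%) lay inside a region called in all lists, though, and the 33 that were covered but had no member lay in regions with a median width of 8711 bp, whose centres were 1014.5 to 3383.5 bp away. The regions of the 46 with a member had a median width of 4392 bp, though Rpl6, without one, lay in a region of 3909 bp. The membership rule thus misses promoters far from the centre of a merged region, which for these genes was more often a wide one.

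The same held for the genes of cartilage itself. Of 20 genes of resting and proliferating chondrocytes, 6 had a member (30.0%) while 17 (85.0%) had an end in a region called in all lists. Sox9, the master regulator of chondrocytes, was covered by a region of 13635 bp whose centre lay 1583 bp away. Col2a1, the main cartilage collagen, lay in a region of 33535 bp and Acan, its main proteoglycan, in one of 10849 bp, and neither had a member. Of 37 limb and digit patterning factors 14 had a member (37.8%) and 29 were covered (78.4%). Growth plate signalling had 12 of 32 (37.5%) with a member and 29 (90.6%) covered, including Tgfbr1, a TGF-beta receptor, at a median percentile of 98.9.

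Lists of other cell types and tissues were covered to varying degrees. A member was found at 4 of 15 skeletal muscle genes, 5 of 13 of endothelium, 1 of 12 of blood and macrophages, 3 of 12 of epidermis and 5 of 10 of nerve and Schwann cells. An end in a region called in all lists was found for 5 of the 15 muscle genes, 8 of the 13 endothelial, 4 of the 12 blood, 7 of the 12 epidermal and 8 of the 10 nerve genes, beside 61.6% of all protein-coding genes and 9 of 15 genes of prehypertrophic and hypertrophic chondrocytes.

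A shorter set of defining markers was checked in the same way. Of 7 chondrocyte markers, Sox9, Col2a1, Acan, Hapln1 and Col11a1 had an end in a region called in all lists, and Col9a1 and Matn1 in fewer lists. Of 3 hypertrophic markers, Ihh was in a region of all lists and Col10a1 and Runx2 in fewer. All 4 of perichondrium and osteoblasts (Col1a1, Col3a1, Postn and Twist1) were in regions of all lists, and of 3 tendon markers Scx and Mkx were and Tnmd had no end in any region. Of 5 muscle markers, Myod1, Myf5, Myog and Acta1 were in regions of fewer lists and Ttn in none. Of 5 endothelial markers, Kdr and Cldn5 were in regions of all lists, Cdh5 in fewer and Pecam1 and Tie1 in none. Of 4 blood markers, Spi1 was in a region of all lists and Ptprc, Csf1r and Gata1 in none, and of 4 epidermal markers Cdh1 was in one of all lists and Krt5, Krt14 and Trp63 in none. Of 4 nerve and Schwann cell markers 3 were in regions of all lists, Tubb3 and Elavl3 among them, and Sox10 in one of fewer lists. Some markers of cell types other than chondrocytes thus lay in open regions of all lists too. Only 1 of 1106 olfactory receptor genes and none of 52 keratin-associated protein genes had a member. Fewer cells of a type and less open chromatin per cell cannot be told apart in these bulk samples.

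**Figure D3:**
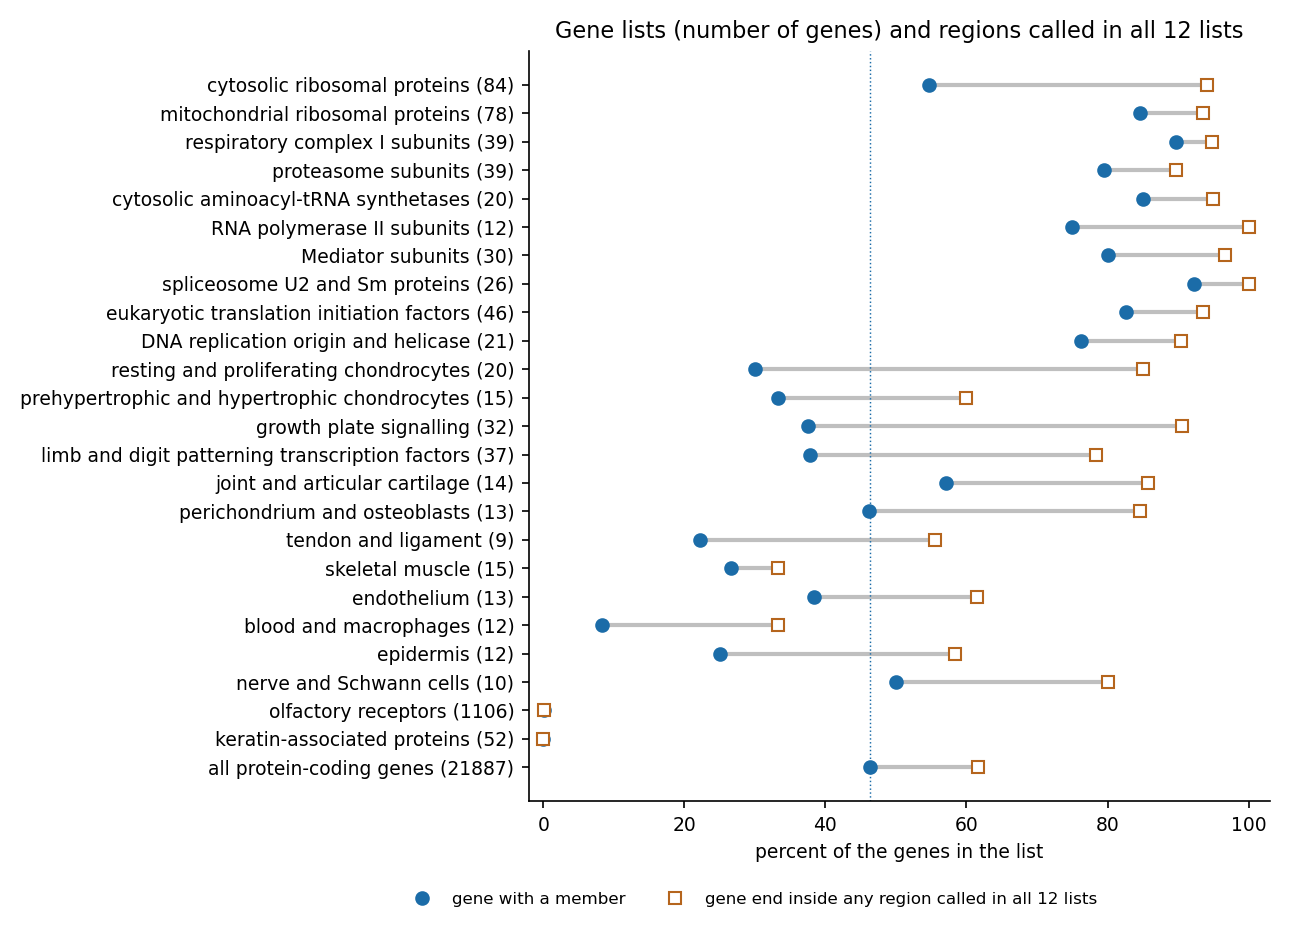
For 24 gene lists and all protein-coding genes, the percent of genes with a member (circles) and the percent with an end inside any region called in all 12 lists (squares). The dotted line marks the 46.4% of all genes with a member, and the gap between circle and square is widest for resting and proliferating chondrocyte genes, 30.0% against 85.0%.

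The widest members were clusters and domains. The member nearest to Hoxd12 (chr2:74653846-74701558) took in ends of Evx2, Hoxd13, Hoxd12, Hoxd11, Hoxd10 and Hoxd9, and its centre lay 3 bp from an end of Hoxd12. It held 5 to 8 peaks by list. In the metacarpals 34502 bp of it were covered at digit I, 44671 bp at digit III and 36666 bp at digit V, and in the metatarsals 38945, 42305 and 40334 bp. In the hand phalanges 39448, 39604 and 37205 bp were covered at digits I, III and V, and in the foot phalanges 38590, 42449 and 40159 bp. Digit III thus had the longest cover in each of the 4 limb and element pairs, which is a description of 12 values noted after they were seen. The digit III list also held the most peaks in the metacarpals (53276), the hand phalanges (44289) and the foot phalanges (47375). In the metatarsals it held 44292, against 46582 at digit I. The part of list length in the cover was not tested. The rank of its highest peak stayed between percentile 72.5 and 84.8. Scx, the transcription factor of tendon progenitors, lay in a member of 23506 bp (chr15:76446266-76469771) together with ends of Bop1 and Mroh1, of which a median of 18110 bp was covered. The widest of all, at C130026I21Rik (chr1:85230508-85335130), covers a family of similar gene copies.

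The 3 factors of the design were compared by turning each list's ranks into normal scores (standard normal quantiles of the ranks) over the 23353 regions and fitting limb, element and digit together with limma. Effects are differences of normal scores in SD units, p-values are Benjamini-Hochberg adjusted over all those regions, and a member is called when the adjusted p is under 0.05. The p-values measure the spread between lists, each of which pools 3 libraries. Between phalanges and metapodials 2100 of 9119 members (23.0%) were called, against a background of 27.1% over all the regions. The share at members was not above that background. Of the calls, 1311 ranked higher in the phalanges (background 13.4% of regions) and 789 lower (background 13.7%). When members were ranked among themselves the split changed to 1233 higher and 1355 lower, so the excess of higher calls is relative to the distal regions. Leaving out the foot phalanges of digit V cut the calls to 1181, the hand phalanges of digit III to 1318 and of digit V to 1321, metacarpal digit III to 1347 and metatarsal digit I to 1367.

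The member with the smallest adjusted p lay near the end of Ctf1, which encodes the cytokine cardiotrophin 1 (chr7:127716248-127718334). Its percentile was 36.2, 25.5 and 35.1 in the hand phalanges of digits I, III and V and 43.6, 30.2 and 40.4 in the foot phalanges. It was 12.04, 7.1 and 3.6 in the metacarpals and 12.8, 8.9 and 7.7 in the metatarsals. All 6 phalanx lists were above all 6 metapodial lists, a difference of 1.00 ± 0.0862 SD units (SE, limma adjusted p = 0.000654). Pde4dip, a scaffold protein of the centrosome and Golgi (chr3:97887920-97889396), ran from 19.8 to 33.7 in the phalanges and from 7.3 to 20.3 in the metapodials, which overlap. Gal3st3, Nptx1, Rasl12, Padi1 and Atp6v1fnb were also among the 8 with the smallest adjusted p in this direction.

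In the other direction Btbd19 (chr4:117123942-117128624) ranked lowest in the phalanges of the foot. Its percentile was 29.1, 13.9 and 12.7 in the hand phalanges of digits I, III and V and 8.6, 6.7 and 7.4 in the foot phalanges. In the metacarpals it was 45.7, 49.3 and 48.0 and in the metatarsals 31.0, 39.0 and 35.8, and no phalanx list reached a metapodial list (-0.96 ± 0.101 SD units, limma adjusted p = 0.00115). Kcnn4, a calcium-activated potassium channel (chr7:24363476-24375535), ran from 7.8 to 27.6 in the phalanges and from 33.6 to 58.6 in the metapodials. Mrln, whose small peptide restrains the calcium pump of muscle, had medians of 4.14 and 19.1. Slc16a4, Il16, Zfp324, AW209491 and Zfp995 completed the 8 named. The windows of Pde4dip and Btbd19, opposite in direction, can be read side by side in the 200 bases before their starts, shown because both members are named by a start of known strand. Capitals again mark motif matches.
Pde4dip, chr3:97888708-97888907, - strand: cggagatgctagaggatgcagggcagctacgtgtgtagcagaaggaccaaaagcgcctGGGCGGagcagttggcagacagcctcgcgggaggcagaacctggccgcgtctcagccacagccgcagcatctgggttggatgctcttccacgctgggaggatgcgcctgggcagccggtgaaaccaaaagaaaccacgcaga
Btbd19, chr4:117125659-117125858, - strand: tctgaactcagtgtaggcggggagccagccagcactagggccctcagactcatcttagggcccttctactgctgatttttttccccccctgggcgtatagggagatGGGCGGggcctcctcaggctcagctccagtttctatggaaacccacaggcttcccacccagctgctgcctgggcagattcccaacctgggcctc
Each holds 1 GC box, and they differ in CpG, with 13 pairs in Pde4dip and 3 in Btbd19. Rasl12, higher in the phalanges, and Kcnn4, lower, are also named by a start of known strand. Their stretches hold 6 and 5 CpG pairs, so the contrast belongs to the pair shown.

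**Figure D4:**
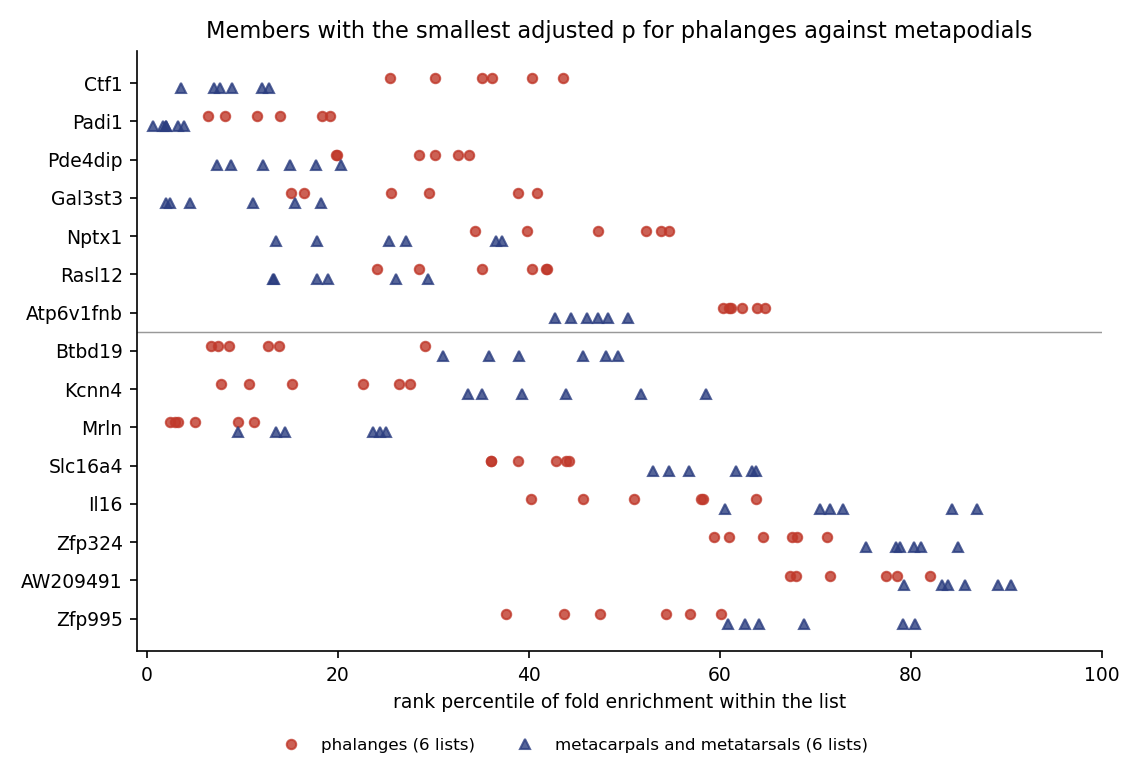
Rank percentile in each of the 12 lists for the members with the smallest adjusted p in each direction (7 of the 8 higher and all 8 lower in the phalanges), with circles for the 6 phalanx lists and triangles for the 6 metacarpal and metatarsal lists. Members above the grey line ranked higher in the phalanges, and Ctf1, Padi1 and Atp6v1fnb among them show no overlap between the groups.

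Listed genes moved in both directions between the elements. The counts that follow stand beside 27.1% of all the regions called, 13.4% higher and 13.7% lower in the phalanges, and no list was tested against those shares. Of 5 members at genes of prehypertrophic and hypertrophic chondrocytes, 3 were called higher and 1 lower in the phalanges. Pth1r, the receptor for parathyroid hormone-related peptide, stood at 63.3 to 64.7 in the phalanges and 48.1 to 59.8 in the metapodials, without overlap (0.28 ± 0.0539 SD units, limma adjusted p = 0.00745). Sp7, a factor of osteoblasts and hypertrophic chondrocytes, ran from 41.9 to 53.6 and from 23.4 to 44.8, which overlap (limma adjusted p = 0.0136). Alpl, tissue alkaline phosphatase, was called higher too (limma adjusted p = 0.0451) and Foxa2, a factor of hypertrophy, lower (limma adjusted p = 0.0360). Of 8 joint genes 3 were called higher (37.5%, background 13.4%) and none lower. They were the Wnt ligands of the joint interzone Wnt4 and Wnt9a and the factor Barx1, with effects of 0.29 ± 0.0896, 0.25 ± 0.0646 and 0.35 ± 0.0858 SD units (SE). With the correction for GC content described further on, none of the 3 was called (limma adjusted p = 0.544, 0.582 and 0.982), and Alpl (0.281), Wnt5b (0.166) and Sall1 (0.155) were not either.

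Growth plate signalling had 3 members called higher and 1 lower of 12 (33.3%), near the background of 27.1%. Among ligands, Bmp2 had medians of 92.0 in the phalanges and 87.8 in the metapodials and Wnt5b 65.2 and 50.3. Among receptors, Tgfbr1 had medians of 99.2 and 98.3 and was called higher, while Bmpr1b, with 61.3 and 69.9, was called lower. Of 14 limb patterning factors only Sall1 was called (0.23 ± 0.0750 SD units, limma adjusted p = 0.0485). The region of Hoxa13, which is no member, was higher in the phalanges (0.30 ± 0.0714 SD units, limma adjusted p = 0.0163), and the HoxD domain showed no call (-0.02 ± 0.0747, limma adjusted p = 0.830). Sox5 was the only one of 6 members of the resting and proliferating list called between elements (0.28 ± 0.0703 SD units, limma adjusted p = 0.0196).

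Housekeeping lists had members called in both directions, beside a background of 27.1%. Of 35 members at complex I genes 7 were called (20%), all lower in the phalanges (background 13.7%), with Ndufb5, Ndufb6 and Ndufa5 among them. Of 16 DNA replication members 5 were called lower and 1 higher (37.5% in all). Cdc45, of the replicative helicase, stood at 64.6 to 74.3 in the phalanges and 77.1 to 82.9 in the metapodials (-0.33 ± 0.0567 SD units, limma adjusted p = 0.00528). Orc5, Mcm3, Gins1 and Orc3 were the others called lower, and Cdc6, which loads the helicase, was higher. Mitochondrial ribosomal members split into 12 higher and 6 lower of 65 (27.7%), and cytosolic ribosomal members into 3 and 5 of 45 (17.8%). The other 6 housekeeping lists had 4.17% (Mediator) to 13.2% (translation initiation factors) of their members called. The median effects of all the housekeeping lists lay between -0.12 (DNA replication) and 0.12 (RNA polymerase II), beside 0.04 over all members and 0.02 over all the regions. The 466 members at divergent pairs had a share of calls of 15.2%, beside 23.0% of all members.

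Markers of neighbouring cell types changed in either direction as well, in lists of 3 to 6 members read against the same background of 27.1% called (13.4% higher, 13.7% lower). Of 6 perichondrium and osteoblast members Twist1 and Dlx3 were called higher in the phalanges and Postn, periostin of fibrous tissue, lower. Twist1 ran from 93.1 to 96.3 in the phalanges and 83.7 to 91.2 in the metapodials, and Postn from 20.4 to 37.9 and 38.9 to 51.5. Of 5 nerve and Schwann cell members S100b, which chondrocytes also express, was lower, at 2.8 to 13.4 against 20.7 to 33.6 (-0.85 ± 0.137 SD units, limma adjusted p = 0.00444). Tubb3, a tubulin of neurons, was higher. Of 5 endothelial members Sox18 was higher and Tek lower, of 4 muscle members Ckm was higher and Actn2 lower, and of 3 epidermal members Cdh1 was higher. The part of other cell types in the element differences was not tested.

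Of the 77 listed members called by element, 33 kept their call whichever single list was left out. Of the genes just named these were Pth1r, Sp7, Wnt9a, Barx1, Tgfbr1, Sox5, Cdc45, Orc5, Ndufb5, Ndufb6, Twist1, Postn, S100b, Tubb3 and Ckm. The rest lost it without at least 1 list. Sox18 lost it only without the hand phalanges of digit III and Tek only without the foot phalanges of digit V (limma adjusted p = 0.0505 for both). Alpl reached 0.104 without the hand phalanges of digit III, and Sall1 0.104 without metatarsal digit I, by the same limma fit. Of the 62 that have a promoter window, 55 kept their call in a fit to the members with a window and 40 kept it there with the GC correction. With that correction Mcm3 (limma adjusted p = 0.222), Ndufa5 (0.0578) and Ckm (0.0936) were not called.

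Base composition moved with the element calls. A promoter window was available for 7204 members (79.0%), which is under 80%, so a check over all members is void and the values hold for those 7204 alone. Among them the members called higher in the phalanges had a median GC content of 65.7% and those called lower 56.3%, beside 61.7% for all 7204. In every list rank and GC content had a positive Spearman rho across these members, from 0.188 to 0.381. With the 7204 cut into 5 bins of GC content, the median percentile of the richest bin exceeded that of the poorest by 19.9 to 24.6 points in the phalanx lists and by 13.5 to 21.1 points in the metapodial lists, ranges that overlap. The richest bin lay below the next richest in metacarpal digits III (75.3 against 75.7) and V (74.97 against 75.3) and in metatarsal digit V (75.6 against 77.6). Across members the element effect and GC content had a Spearman rho of 0.317 (n = 7204 members, which share the 12 lists and are no independent replicates).

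The fit was therefore repeated on these 7204 members with each list corrected for GC content, an alternative chosen after the data had been seen. Without the correction 2087 of them were called (a share of 29.0%), 996 higher and 1091 lower in the phalanges. With it 1603 were called (22.3%), 757 higher and 846 lower, and 1262 were called in both with the same direction. Of the 1628 that the fit over all regions had called among them, 1076 were still called. All of the element members named above for their small adjusted p that have a window kept their direction and their call, 11 in number.

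**Figure D5:**
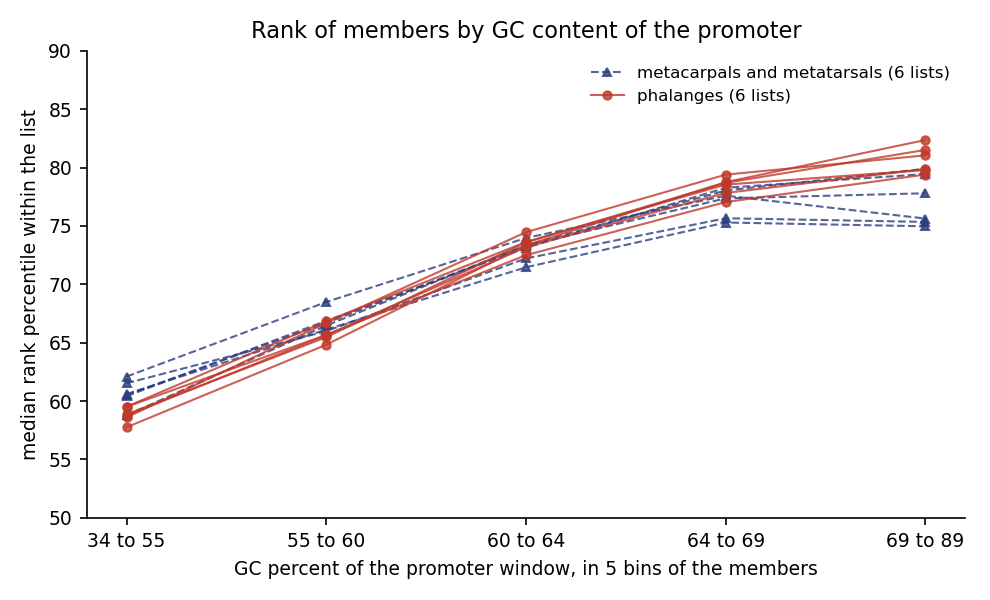
Median rank percentile within the list (y axis, from 50) for 5 bins of the 7204 members by GC percent of the promoter window (x axis). Each line is 1 list, solid with circles for phalanges and dashed with triangles for metapodials, and the richest bin exceeds the poorest by 13.5 to 24.6 points.

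Differences between hindlimb and forelimb were few. At members 97 were called (1.06%), against a background of 2.59%, with 40 higher in the hindlimb (background 1.08%) and 57 lower (background 1.51%). Far1, which makes the fatty alcohols of ether lipids (chr7:113511997-113515273), stood at 97.2, 97.1 and 98.2 in the metatarsals of digits I, III and V and at 98.4, 96.9 and 98.3 in the foot phalanges. In the metacarpals it was 93.9, 90.4 and 92.3 and in the hand phalanges 95.8, 95.1 and 96.4, so that every foot list was above every hand list (0.43 ± 0.0655 SD units, limma adjusted p = 0.0269). Near an end of Pgap4 (chr4:49583455-49587454), an enzyme that builds the glycan of membrane anchors, the ranks ran from 1.6 to 16.2 in the hindlimb and 15.0 to 31.2 in the forelimb, which overlap (-1.003 ± 0.154 SD units, limma adjusted p = 0.0269). Alg13, of protein glycosylation (chrX:144317260-144320304), was lower in the hindlimb as well, at 59.4 to 73.4 against 71.6 to 82.1. Gal3st3 was higher in the hindlimb and Mrln and AW209491 lower, and these 3 were named for the element too. The member at Pitx1, the hindlimb selector gene, and Catsper3 (chr13:55822136-55826947) had a median percentile of 7.37 and was not called by limb (limma adjusted p = 0.181). No member of any gene list was called by limb.

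The number of limb calls depended strongly on which lists were in the fit. Leaving out 1 list left 87 calls without metacarpal digit I, 37 without the foot phalanges of digit III and 24 without metacarpal digit III. It left 12 without the hand phalanges of digit I, 10 without the foot phalanges of digit I, 8 without those of digit V or metatarsal digit I, 3 without the hand phalanges of digit III or metatarsal digit V, 2 without metacarpal digit V and 1 without the hand phalanges of digit V or metatarsal digit III. The 97 calls of the full fit included 52 of the 87, 28 of the 37 and 18 of the 24. With log2 fold enrichment, quantile normalized, there were 176 higher and 140 lower, and with trend and robust settings 312 and 257, so the direction of the excess depended on the scale. No member was called for a limb difference that depended on the element (limb by element term of limma, 0 called, background 0%). By the same term 274 members had an unadjusted p under 0.05. Quantile normalized log2 fold enrichment and the trend and robust settings also gave 0 calls. The fits to members with a promoter window, without and with GC correction, gave 1 call each. A lack of calls from 12 lists does not show that no such dependence exists.

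Digit I, the thumb or big toe, was compared with the mean of digits III and V. At members 121 were called (1.33%), against a background of 1.36%, with 44 higher in digit I (background 0.385%) and 77 lower (background 0.976%). Pkia, an inhibitor of protein kinase A (chr3:7364668-7368193), had the smallest adjusted p. It stood at 91.8, 94.2, 91.1 and 92.4 in the 4 lists of digit I (metacarpal, metatarsal, hand phalanges, foot phalanges) and at 95.5 to 97.9 in the other 8, with no overlap (-0.44 ± 0.0537 SD units, limma adjusted p = 0.0288). Itga1, a collagen-binding integrin (chr13:115100280-115102994), stood at 63.0 to 70.9 in digit I and 75.3 to 84.4 in the others, again without overlap. Col11a1, a cartilage collagen, was lower in digit I, with 74.99, 79.3, 78.0 and 85.1 in the same order of lists (-0.42 ± 0.0808 SD units, limma adjusted p = 0.0476). It kept this call only without the foot phalanges of digit I or of digit V, and leaving out any of the other lists gave a limma adjusted p of 0.0683 to 0.168. Igtp, an interferon-induced GTPase (chr11:58199028-58200634), was higher, at 7.4 to 17.2 against 1.0 to 6.9.

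Most of these calls were also lost with 1 list fewer. Without the foot phalanges of digit V 171 and without metatarsal digit I 95 members were called, but 18 without the foot phalanges of digit I, 1 without those of digit III and 0 without any of the 8 other lists, which were metacarpals I, III and V, metatarsals III and V and the hand phalanges of digits I, III and V. Of the 121 calls of the full fit, 99 were among those 171, 51 among the 95 and 16 among the 18. The 1 call without the foot phalanges of digit III was not among the 121. Members ranked among themselves gave 1490 calls (574 higher, 916 lower) and quantile normalized log2 fold enrichment 594 (303 and 291). GC content moved with digit I as with the element. The called members higher in digit I had a median GC content of 64.5% and those lower 55.0%. Between digits V and III no member was called (limma, 0 of 9119, background 0%), 690 had an unadjusted p under 0.05 and the smallest adjusted p was 0.215. Quantile normalized log2 fold enrichment and the trend and robust settings gave 0 calls, and ranks among the members alone gave 1.

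The median rank of all members shifted by less than a percentile point with any factor. It was 70.4 ± 0.329 (SD, n = 6 lists) in the hindlimb and 69.9 ± 0.689 (n = 6) in the forelimb, and 70.5 ± 0.261 in the phalanges and 69.8 ± 0.666 in the metapodials (n = 6 lists each). For each of these the exact stratified permutation gave a two-sided p = 0.0312, the smallest 6 pairs allow, and an adjusted p = 0.0833 over 8 tests. Digit I stood at 70.5 ± 0.227 (n = 4) and the other digits at 69.9 ± 0.616 (n = 8), with an exact permutation p = 0.0123 and an adjusted p = 0.0833. None of the 8 tests, which included the widths, passed 0.05 after adjustment. Metacarpal digit V, the lowest list in rank, width and fold enrichment of members, belongs to the lower group for limb, element and digit I alike.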

How the data were processed

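ATAC-seq peaks of 36 libraries were deposited by the authors as 12 lists on mm10, 1 for each group of 3 libraries. MACS3, Picard 2.9.0 and Bowtie2 2.3.4.1 are listed in the submitters' processing notes, with no roles given. The list names give an irreproducible discovery rate (IDR) threshold of 0.05. Each peak carries a score, a fold enrichment (a ratio), and a −log10 p, all deposited by the authors. These values are the caller's own and were used to rank peaks within a list. The smallest −log10 p in a deposited list was 23.0 to 49.6, and the lists held 36194 to 53276 peaks. Read depth is unknown here, so no counting interval is given. Fold enrichment and −log10 p ordered the peaks alike in every list.

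Peaks sharing at least 1 bp were merged in Python 3.11.15 (pandas 2.3.3). Gene ends came from RefSeq (GRCm38.p6), where strand was known for 79.9% of protein-coding genes. A region's value in a list was that of its highest peak. Ranks over the 23353 regions called in all lists were turned into normal scores and fitted with limma 3.58.1 (R 4.3.3) as limb, element and digit, and again with a limb by element term. Adjusted p-values are Benjamini-Hochberg over all those regions. The fit was tested on simulated data. Medians by list were compared by exact permutation over lists. Named members were, per contrast, the 8 with the smallest adjusted p in each direction, the 10 highest, lowest and widest, the 5 on each side of the distance limit, up to 4 genes and all called genes per gene list, and 13 landmark genes. The values at 2 of the named members are not reported here. Members and gene lists were chosen with earlier results of these data known. Some other features named were noted after their values were seen, and are said to be so. Alternatives covered the distance, the merging, the list length, the value and set ranked, regions with several peaks, the variance model, single lists left out and, added after seeing the data, GC content.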

Additional observations from a re-analysis of the deposited data

Results flagged for a closer look

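In 1 of the 35 groups of lists checked, a list stood apart from the others. Among the 6 phalanx lists, the median member of the foot phalanges of digit I was 166 bp wider than the median distal region, while the other 5 lists lay between 9 and 63.5 bp. Chance alone marks about 1 group in 20.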

How the results depend on the processing

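No paired analysis was possible because each list pools its 3 replicates and carries no replicate number. The stratified permutations pair groups of libraries by limb, element and digit instead. The number of members ran from 9134 to 9245 with 1 list left out and was 5642 when peaks had to cover 50% of the merged region. It stayed within 1.5 times of 9119 under the 7 other alternatives (6225 at 500 bp, 11293 at 2 kb). The rank difference from distal regions kept its call in all settings run (35.3 to 35.8 points with 1 list left out). The width difference was 33.1 to 52.9 bp with 1 list left out, and the call was lost for 6 lists. Calls by element ranged from 1181 to 2420 with 1 list left out, calls by limb from 1 to 87 and calls by digit I from 0 to 171. By limb there were 316 calls with quantile normalized log2 fold enrichment, 429 with ranks among members, 569 with trend and robust settings, 380 over members with a promoter window and 439 after GC correction. By digit I the same settings gave 594, 1490, 1284, 1252 and 1075. Digit V against III had 1 call with ranks among members, 17 over members with a window and 21 after GC correction, and limb by element 1 call in each of the last 2 settings. Ranking by −log10 p gave the same values throughout. The cause of these changes was not tested. All 16 members named by element kept their call with any 1 list left out, while the 16 named by digit I all lost it for 9 lists. The effect at Barx1, 0.35 by element, was -0.00388 after GC correction. Of 77 listed members called by element, 61 kept the call under every other ranking, scale or fit in which they had a value, leaving aside the settings with 1 list left out or over members with a window. Over members with a window 62 had a value, of which 7 lost the call, and 22 lost it after GC correction. Direction was checked for the members named for a small adjusted p and for the listed members called in the same contrast. Of these, no other changed direction in any setting run. Of all 1628 members with a window called by element in the fit over all regions, 10 had the other sign after GC correction.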
